A study of Mus musculus with 15 samples.

Results

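The 10 genes described here encode parts of heart muscle: Myh6, Myh7, Myl4, Myl7, Nppa, Actc1, Tnnt2, Tnni3, Ryr2 and Sln. They are 10 of 33340 genes in a count table of RNA from whole mouse lung. They were chosen by name because an earlier look at these same libraries had shown Myh6 to differ widely between libraries of one day, so their levels across the 15 libraries are a description, and the calls that the fit over all genes made for them are printed beside the share of all genes called and support nothing. All mice were male C57BL/6 animals of 10 to 14 weeks of age. The treated mice received bleomycin, a drug that injures the lung and leads to fibrosis, once into the trachea at 5 U/kg, and lungs were taken at day 7 (4 libraries), day 14 (4 libraries) and day 21 (3 libraries). Day 0 (4 libraries) was labelled as control with no treatment, except that replicate 4 is a control by its title and day 0 by its time point while its treatment field names bleomycin. Bulk whole lung holds every cell type that came with the organ, so fewer cells of a type and less RNA per cell cannot be told apart.

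Cardiac muscle contracts when calcium released from the sarcoplasmic reticulum through the ryanodine receptor (Ryr2) lets myosin heads pull on actin filaments, with troponin as the calcium switch. Atrial and ventricular muscle use different versions of the same parts, and the light chains mark the chamber: Myl7 and Myl4 in the atrium, Myl2 in the ventricle. In mice, sheaths of cardiac muscle of atrial type run along the wall of the pulmonary veins into the lung.

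The raw count tables held 15652008 to 18020661 reads on genes per library, and 17457 genes passed the filter on low counts. Lung markers were present in all 15 libraries, with Sftpc, the surfactant protein of alveolar type 2 cells, at 35781 to 395283 counts. In 4 libraries most of the members stood apart from the rest: day 0 replicate 3, day 0 replicate 4, day 7 replicate 4 and day 21 replicate 1. The comparisons between days that follow use all libraries, and values without these 4 follow for the genes named there, as ranges where a range is enough. Of 8 lung markers, the 5 of alveolar cells were lowest of all 15 libraries in day 21 replicate 1, the library with the highest summed level of the members other than Myh7: Sftpc stood at 2213 CPM (at least 3742 in the others), Sftpb at 1298 (1558), Lamp3 at 54.1 (146.0), Ager at 1042 (1995) and Hopx at 108.6 (167.4). The club cell, ciliated cell and endothelial markers Scgb1a1, Foxj1 and Cdh5 were not lowest there, and the part of these markers in the cardiac levels was not tested. No label names a batch, and none says whether the replicates of a day came from separate animals, so the errors cover only the spread between these libraries.

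Promoters of 4 members are printed because these genes carry the contrast of the data: Myh6, Myl7 and Actc1 varied together between libraries, and Myh7 did not vary with them. The sequences are from RefSeq on GRCm38.p6, 250 bases before to 50 bases after the annotated start, 5′ to 3′ on the gene's strand, and 9 of the 10 members had an entry; Sln had none. Capitals mark matches to the motifs searched on both strands: the CArG box bound by serum response factor, the MEF2 site, the letters of the TATA box (TATAAA), the GATA site (AGATAA), the E-box (CAGCTG) and the MCAT element (CATTCCT).
Myh6: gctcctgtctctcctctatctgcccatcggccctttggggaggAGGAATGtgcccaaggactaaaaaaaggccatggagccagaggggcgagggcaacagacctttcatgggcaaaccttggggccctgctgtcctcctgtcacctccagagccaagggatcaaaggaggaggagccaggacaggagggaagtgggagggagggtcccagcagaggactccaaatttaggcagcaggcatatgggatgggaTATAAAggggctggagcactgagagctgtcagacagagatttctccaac
Myl7: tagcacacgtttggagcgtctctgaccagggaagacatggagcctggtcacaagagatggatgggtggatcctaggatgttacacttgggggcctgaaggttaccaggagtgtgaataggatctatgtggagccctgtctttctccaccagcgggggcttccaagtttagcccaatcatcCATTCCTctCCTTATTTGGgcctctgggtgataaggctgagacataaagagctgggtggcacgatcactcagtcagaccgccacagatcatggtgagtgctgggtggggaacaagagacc
Actc1: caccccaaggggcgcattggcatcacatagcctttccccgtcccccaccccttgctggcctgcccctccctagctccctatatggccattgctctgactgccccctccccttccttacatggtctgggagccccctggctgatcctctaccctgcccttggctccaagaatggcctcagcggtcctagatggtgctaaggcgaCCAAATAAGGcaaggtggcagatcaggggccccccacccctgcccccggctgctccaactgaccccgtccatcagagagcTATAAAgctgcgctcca
Myh7: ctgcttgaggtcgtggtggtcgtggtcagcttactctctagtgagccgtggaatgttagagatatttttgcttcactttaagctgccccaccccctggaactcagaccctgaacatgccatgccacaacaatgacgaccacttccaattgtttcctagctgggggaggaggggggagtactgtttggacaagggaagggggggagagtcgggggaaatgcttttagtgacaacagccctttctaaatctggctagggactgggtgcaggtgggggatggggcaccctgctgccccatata
The windows lie at chr14:54966558-54966857 (Myh6), chr11:5898733-5899032 (Myl7), chr2:114052826-114053125 (Actc1) and chr14:54994577-54994876 (Myh7), all on the minus strand. A CArG box stood in 2 of the 9 member promoters, Myl7 and Actc1, and in 1.63% of 32851 mouse promoters of this length. The MCAT element was found in 3 (Myl7, Myh6, Tnnt2), against 5.36% of all promoters, and the letters TATAAA in 3 (Nppa, Myh6, Actc1), against 13.6%. The TATAAA match began 9 bases before the annotated start in Nppa, but 1 base after it in Myh6 and 33 bases after it in Actc1. The E-box was in 2 (Nppa, Tnnt2; 16.3% of all), the GATA site in 1 (Tnnt2; 11.2% of all) and the MEF2 site in 0 (3.19% of all). The printed Myh7 window, like those of Myl4, Tnni3 and Ryr2, held none of these letters, which says nothing about the factors that bind there.

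Myh6 encodes the fast alpha myosin heavy chain, the main heavy chain of the adult mouse heart and of atrial muscle (chr14:54941921-54966927 on mm10, minus strand). At day 0 it had 2, 124, 1296 and 1315 counts in replicates 1 to 4. At day 7 the counts were 8, 8, 75 and 4981, at day 14 they were 1, 0, 2 and 0, and at day 21 they were 5191, 7 and 2. As CPM, the count scaled to a common library size with each library divided by its own total after TMM scaling, Myh6 therefore lay at 73.4 and 82.3 in the higher pair of day 0 libraries, at 296.1 in day 7 replicate 4 and at 321.0 in day 21 replicate 1, and below 8 in the other 11. Days 0, 7 and 21 overlapped, while the 4 libraries of day 14 held 0 to 2 counts. Day 0 replicate 1 and day 21 replicate 3 had 2 counts as well, so day 14 is not told apart from them at this depth.

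The atrial light chains followed the same libraries. Myl7, the atrial regulatory light chain (chr11:5896637-5898782), had 8, 23, 484 and 210 counts at day 0, 22, 21, 38 and 693 at day 7, 18, 58, 90 and 33 at day 14, and 494, 7 and 42 at day 21. Myl4, the atrial essential light chain (chr11:104550663-104595753), had 289 to 972 counts in the 4 libraries that stand apart and 24 to 84 in the other 11. Unlike Myh6, neither light chain was at 0 in any library: the lowest levels were 0.399 CPM for Myl7 and 1.34 CPM for Myl4.

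Sln encodes sarcolipin, a small inhibitor of the calcium pump that in the mouse heart is made mainly in the atria (chr9:53850164-53854560). Its counts were 0, 6, 101 and 73 at day 0, 0, 0, 4 and 312 at day 7, 142, 0 and 0 at day 21, and 0 in all 4 libraries of day 14. The 4 libraries that stand apart thus had 73 to 312 counts of Sln and the others 0 to 6. Nppa, the atrial natriuretic peptide (chr4:148000722-148002079), was low throughout, at 20 counts in day 7 replicate 4, 21 in day 21 replicate 1 and 0 to 3 in the other 13, and it did not pass the filter. Of its 865 exon bases, 61.5% are shared with an antisense gene, Gm13054 (0 to 5 counts), and the strand setting of the counting is not given in the sources used here. Reads in a shared stretch can be dropped as ambiguous, so the Nppa counts may be too low by an unknown amount.

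Among the parts of the thin filament, Actc1 (cardiac alpha actin; chr2:114047282-114053548) had 974 to 2081 counts in the 4 libraries, above 118 to 713 in the others. Tnnt2 (cardiac troponin T; chr1:135836354-135852260) reached 3029 counts in day 21 replicate 1 and 1614 in day 7 replicate 4. Here the libraries overlapped: day 14 replicate 1 had 395 counts (23.3 CPM), next to 413 (23.0 CPM) in day 0 replicate 4, while Myh6 there had 1 count and Sln 0. Tnni3 (cardiac troponin I; chr7:4518305-4524229) had 263 to 601 counts in the 4 libraries and 30 to 88 in the others. Ryr2, the calcium release channel (chr13:11553102-12106945), had 150 to 339 counts against 9 to 87.

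**Figure D1:**
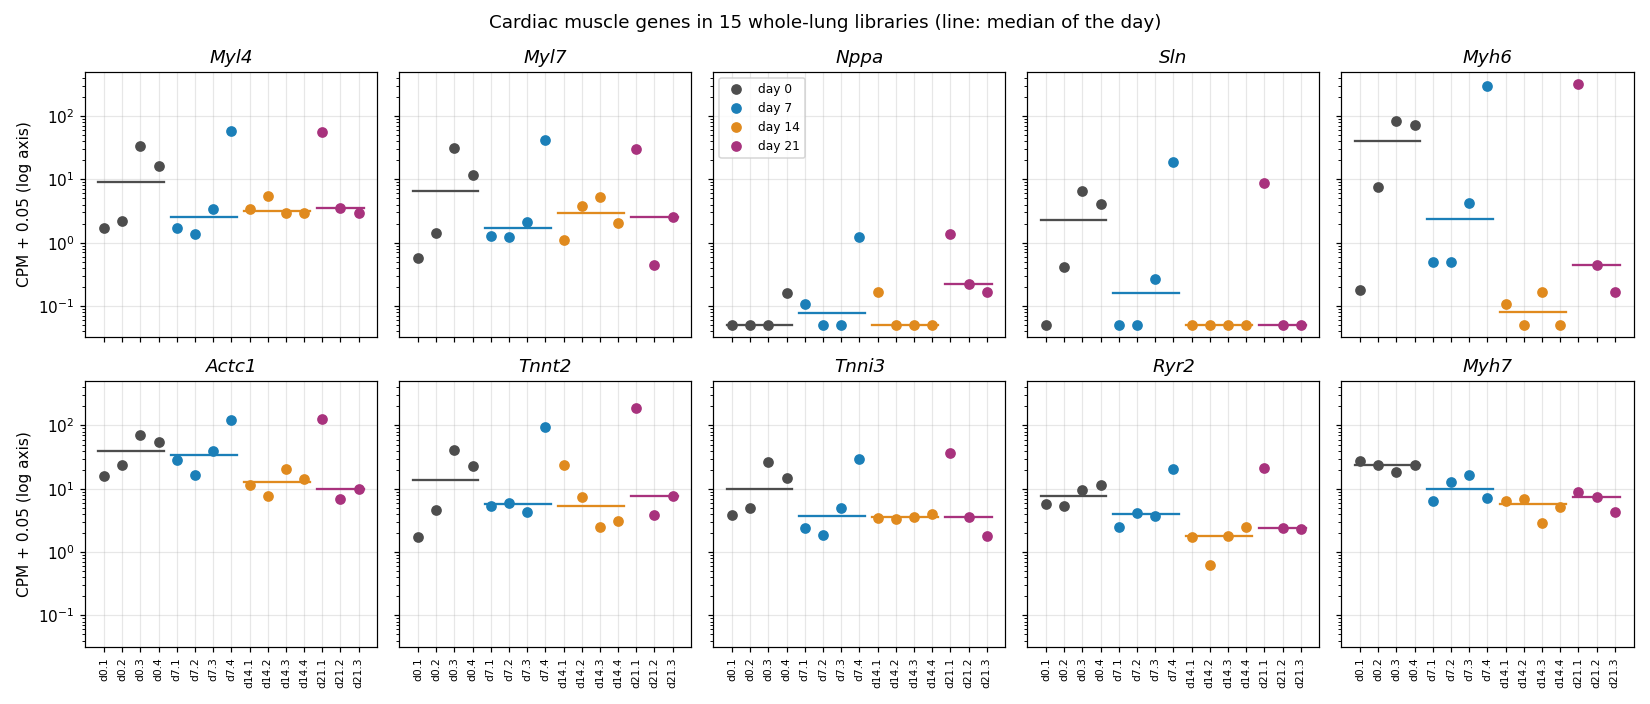
Level of each of the 10 cardiac muscle genes in the 15 libraries, as CPM plus 0.05 on a log axis; each point is a library, coloured by day, and the line is the median of the day. Myh6 reaches 296.1 and 321.0 CPM in day 7 replicate 4 and day 21 replicate 1 and stays below 8 CPM in 11 libraries, while Myh7 shows no such peak.

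Myh7 encodes the slow beta myosin heavy chain of the ventricle before birth and of slow skeletal muscle (chr14:54970684-54994626), and it is the member that went another way. Its counts were 427, 399, 293 and 432 at day 0, 112, 229, 302 and 119 at day 7, 107, 108, 50 and 86 at day 14, and 141, 127 and 71 at day 21. In CPM, day 0 spanned 18.6 to 27.6, day 7 spanned 6.34 to 16.6, day 14 spanned 2.86 to 6.89 and day 21 spanned 4.18 to 8.72. Every library after bleomycin was below every day 0 library, and day 7 replicate 4 and day 21 replicate 1, with the highest Myh6, had 7.08 and 8.72 CPM of Myh7. Genes on the other strand (Mhrt, Gm29015, Gm31251) overlap 13.3% of the Myh7 exon bases. Myh6 and Myh7 are neighbouring genes of near-identical coding sequence and reads that mapped to more than 1 place were left out by the authors, so the split between both is uncertain.

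Within a library, the balance of both heavy chains moved with the 4 libraries. Myh6 made up 81.6% of the Myh6 and Myh7 reads in day 0 replicate 3 (95% Wilson interval 79.6 to 83.4, counting error only), 75.3% in day 0 replicate 4 (73.2 to 77.2), 97.7% in day 7 replicate 4 (97.2 to 98.0) and 97.4% in day 21 replicate 1 (96.9 to 97.8). In the other 11 libraries the share was 0 to 23.7%, the highest being day 0 replicate 2. Corrected for exon length, the share was 79.6 to 98.2% in the 4 libraries and 0 to 28.5% in the others.

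The ventricular light chain was close to absent where the atrial one was high. Myl2, the ventricular regulatory light chain and one of the most abundant ventricular transcripts, had 1, 0, 1 and 2 counts at day 0, 0 in all 4 libraries of day 7, 0, 1, 1 and 0 at day 14, and 1, 4 and 2 at day 21. Of the Myl2 and Myl7 reads, Myl2 gave 0 of 693 in day 7 replicate 4, which allows a share of up to 0.433% by a floor of 3 counts and up to 0.551% by the Wilson interval. In day 0 replicate 3 it gave 1 of 485 (0.206%; Wilson 0.0364 to 1.16), in day 0 replicate 4 it gave 2 of 212 (0.943%; 0.259 to 3.37) and in day 21 replicate 1 it gave 1 of 495 (0.202%; 0.0357 to 1.14). Per kb of exon these shares were at most 0.287%. The ventricular transcription factor Irx4 had 0 counts in 14 libraries and 3 in day 14 replicate 1.

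Myl3, the essential light chain of ventricle and slow skeletal muscle, was also higher in these libraries, with 33, 15, 97 and 163 counts in day 0 replicates 3 and 4, day 7 replicate 4 and day 21 replicate 1, against 0 to 6 elsewhere. Its share of the Myl3 and Myl7 reads was 6.38, 6.67, 12.3 and 24.8% in the same order. Per kb of exon it was 1.93 to 8.70% of Myl3 and Myl7 together in the 4 libraries. Not all atrial genes were seen: Bmp10, a growth factor of the right atrium, had 1 count in all 15 libraries together, and Nppa was 0 of 484 Nppa and Myl7 reads in day 0 replicate 3 and 4.08% in day 21 replicate 1. Kcnj3 and Kcnj5, the subunits of the atrial acetylcholine-gated potassium channel, had 8 to 36 and 15 to 34 counts in the 4 libraries, against 0 to 2 and 0 to 6 in the others.

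**Figure D2:**
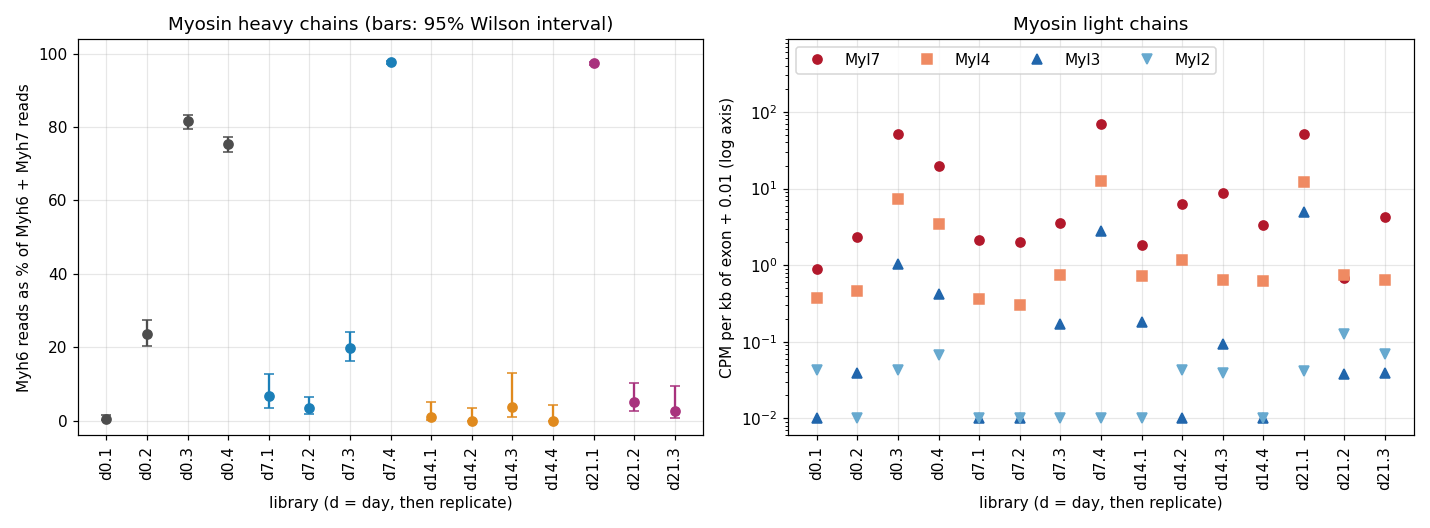
Left, Myh6 reads as a percentage of Myh6 and Myh7 reads in each library, with 95% Wilson intervals; right, CPM per kb of exon plus 0.01, on a log axis, of the atrial light chains Myl7 and Myl4, of Myl3 and of the ventricular light chain Myl2. The 4 libraries with shares of 75.3 to 97.7% are those with the highest Myl7, and Myl2 stays at 0 to 4 counts in all 15.

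Per kb of exon, Actc1 and Myl7 took the largest shares of the members' summed level in the 4 libraries. That length joins all annotated exons, 590 bases for Myl7 and 7752 for Tnnt2, so the order of the shares depends on it. As plain CPM, Myh6 led in each of them, at 73.4 to 321.0. Actc1 was at 54.3 to 124.5 CPM, Tnnt2 at 23.0 to 187.3 and Myl7 at 11.7 to 41.2. Of the summed level per kb of 9 members (Myh7 left out), Actc1 took 31.1 to 41.2%, Myl7 21.6 to 37.8% and Myh6 8.87 to 19.9%. Tnnt2 took 3.65, 3.86 and 5.04% in day 0 replicates 4 and 3 and day 7 replicate 4, and 10.1% in day 21 replicate 1. Sln took 2.78 to 5.73%, and Ryr2, a very long transcript, took 0.240 to 0.494%. As plain CPM, the 9 members summed to 299.7 and 209.0 in day 0 replicates 3 and 4, to 684.2 in day 7 replicate 4 and to 787.6 in day 21 replicate 1, and to 21.1 to 61.7 in the other 11.

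Within days the members varied together, apart from Myh7. On log2 CPM centred on the mean of each day over the 15 libraries, the 28 pairs of the 8 tested members other than Myh7 had Pearson r from 0.75 to 0.98, with a median of 0.90, and the 8 pairs with Myh7 had r from -0.25 to 0.01. Against the mean of the other members, r was 0.99 for Sln, 0.97 for Tnni3, Myh6 and Myl4, 0.93 for Actc1, 0.91 for Myl7, 0.90 for Tnnt2 and 0.85 for Ryr2, and -0.07 for Myh7. These values share libraries and rest largely on the 4 that stand apart. Between-library variation beyond counting error (the biological coefficient of variation of the edgeR fit) was 214.9% for Sln and 174.3% for Myh6, 69.2 to 117.1% for the other 6 and 31.4% for Myh7, where the median of all genes tested was 19.3%.

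**Figure D3:**
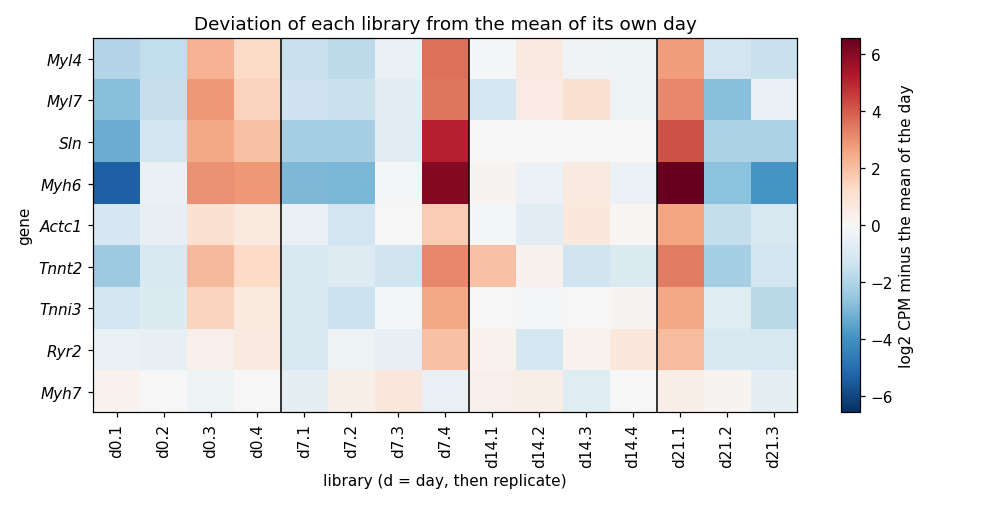
Colour map of the difference between each library's log2 CPM and the mean of its own day, for the 9 members that passed the filter (rows) in the 15 libraries (columns). Red cells, above the day's mean, fill the columns of day 0 replicates 3 and 4, day 7 replicate 4 and day 21 replicate 1 in every row but Myh7, and day 14 is pale for Sln, which had 0 counts there in all 4 libraries.

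The 10 non-member genes with the pattern most like the members, among 15336 genes tested with a mean of at least 1 CPM, had r from 0.95 to 0.99 and included Csrp3 (0.99), Mb, Ckmt2, Myl3, Myoz2, Mybphl, Ttn, Ldb3 and Fabp4. Csrp3, a muscle LIM protein of the Z-disc, had 57 to 274 counts in the 4 libraries and 0 to 5 in the others. Mb, the oxygen-binding myoglobin, had 265 and 211 counts in day 0 replicates 3 and 4, 584 in day 7 replicate 4 and 189 in day 21 replicate 1, against 0 to 19 elsewhere. Ttn, the giant spring of the sarcomere, was present in all libraries, at 183 to 620 counts in the 4 and 23 to 54 in the others. Fabp4, a lipid carrier of fat cells and capillaries, is no muscle gene, and its 15.9 to 41.7 CPM in the 4 libraries overlapped the 6.67 to 22.6 CPM of the other 11. With Spearman's rho in place of r, 6 of the 10 stayed among the first 10, and 8 without day 7 replicate 4.

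A wider list of 55 other cardiac genes showed the same libraries. In 30 of the 55, and in 7 of the 10 members, all 4 libraries lay above all 11 others, which held for 0.556% of the 17457 genes tested; the 4 libraries were picked from the members' own levels, so these counts describe and do not test. By group these were 14 of 18 sarcomere genes, 5 of 8 calcium handling genes, 5 of 7 genes of muscle oxidative metabolism, 2 of 4 transcription factors (Nkx2-5, Tbx20), 2 of 4 atrial genes, 1 of 3 ventricular genes, 1 of 5 pacemaker and conduction genes and 0 of 6 genes of the natriuretic peptide pathway. Nkx2-5, a master regulator of heart muscle, had only 2 to 6 counts in the 4 libraries and 0 to 1 in the others. Tbx20, a cardiac T-box factor, had 11 to 78 counts against 0 to 3. Nebl, Atp2a2 and Gata4, present in all 15 libraries, did not separate them: Nebl had 2597 to 4842 counts in the 4 and up to 5684 in the others.

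Other tissues that could come with a lung were followed by their own markers, and their part in the cardiac levels was not tested. The summed level of 11 skeletal muscle genes was 7.87 to 16.3 CPM in the 4 libraries, and at most 6.69 CPM in the other 11. Of these genes, 2 were highest in all 4 libraries. Tnnt3 (fast troponin T) had 2.26 to 4.08 CPM against at most 2.13. Atp2a1 (the calcium pump of fast muscle) had 0.680 to 1.90 CPM, and the highest of the others was level with the lowest of the 4. The fast myosin Myh4 was at 0 in all of them but day 7 replicate 4, where it had 53 counts with 72 of skeletal actin Acta1, and the fast troponin Tnnc2 had at most 1 count in any library. The summed level of 8 fat cell genes was 70.5 and 66.2 CPM in day 0 replicates 3 and 4 and 140.1 CPM in day 7 replicate 4, but 3.22 CPM in day 21 replicate 1, among the low values of days 14 and 21 (1.08 to 3.95 CPM). Of the 4 mesothelial genes, Lrrn4 was lower in all 4 libraries (168 to 321 counts, 9.99 to 17.9 CPM) than in any other (23.4 to 62.3 CPM), an order that 0.137% of all genes tested had. The other mesothelial genes, Msln, Upk3b and Wt1, overlapped between the 4 libraries and the rest. Summed, mesothelial genes were at 102.98 CPM in day 7 replicate 4 and 167.7 to 908.6 CPM in the other libraries. Day 0 replicates 3 and 4 had 173.4 and 167.7 CPM, against 301.6 and 267.1 in replicates 1 and 2. Day 21 replicate 1 had 420.8 CPM, between the 657.6 and 399.8 of replicates 2 and 3. Of the lists for smooth muscle, thymocytes, cartilage, oesophageal epithelium, red blood cells and lung, 0 genes were above in all 4.

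The share of reads from mitochondrial genes, which heart muscle is rich in, did not follow the cardiac genes in every library. It was 4.22% and 4.04% in day 0 replicates 3 and 4, against 2.28% and 2.31% in the other day 0 libraries, and 4.01% in day 21 replicate 1. Yet it was 2.09% in day 7 replicate 4, within the 2.03 to 2.15% of its day, and 3.74 to 4.14% in day 14 replicates 2 to 4, where Sln had 0 counts. Its log2 value was then added as a covariate. The day 7 log2 fold change of Myh6 against day 0, described next, went from 0.88 ± 1.75 to 6.31 ± 2.47 (SE). As without the covariate, 1, 3 and 1 members were called at days 7, 14 and 21. That fit called 1269, 4187 and 4138 of all genes at these days, against 2818, 4040 and 3924 without the covariate. Every day 7 library had a lower share than any of day 0, so covariate and day are partly tied.

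Against day 0, the comparison that asks what bleomycin changed over time, most members' fold changes at days 7 and 21 changed sign when 1 library was left out. The values come from one edgeR quasi-likelihood fit of all 15 libraries, and a gene was called where its p, adjusted by Benjamini-Hochberg over all genes, was under 0.05 and its fold over 1.5. At day 7, 1 of the 9 members tested was called, Myh7, which was lower; 16.1% of all genes were called, 8.78% higher and 7.36% lower. The log2 fold change (day 7 minus day 0) was -1.14 ± 0.32 (SE, n = 4 and 4) for Myh7 and 0.88 ± 1.75 for Myh6, with a median of 0.26 over the 9 members and 0.01 over all genes. Without day 7 replicate 4, Myh6 turned to -4.60, Myl7 went from 0.04 to -2.88 and Actc1 from 0.34 to -0.54. Without day 7 replicate 1, Myh7 lost its call and 0 of 9 were called. Without all 4 libraries that stand apart, the 8 members still tested lay between -1.23 (Myh6) and 0.68 (Tnnt2), with Myh7 at -1.16.

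At day 14, when no library had a high cardiac level, 3 of 9 members were called and all 3 were lower, where 23.1% of all genes were called, 12.0% higher and 11.2% lower. The called members were Myh7 (-2.15 ± 0.33), Ryr2 (-2.31 ± 0.79) and Myh6, and the median over the 9 was -1.89, against 0.02 over all genes. Myh6 had 3 counts over the 4 libraries of day 14, so the mean of day 0 was 906.8 times the pooled day 14 level, with an interval of 310.3 to 4397 that covers counting error of day 14 only; without day 0 replicate 3 the ratio was 599.8. Without day 0 replicates 3 and 4 it was 84.7 (29.0 to 410.8). Day 0 replicate 1, with 2 counts, was close to the level of day 14. Sln, at 0 in all day 14 libraries, was at least 15.04-fold lower than the mean of day 0 against a floor of 3 counts per library, and at least 8.20-fold without day 0 replicate 3. Without day 0 replicates 3 and 4 the day 0 mean of Sln was 0.181 CPM, level with that floor of 0.180 CPM, which leaves no bound. With the libraries of either day dropped one at a time (8 fits), Myh6 kept its call in 1 fit, without day 0 replicate 1, and Ryr2 in 3. The call count fell to 1, Myh7, without any one of day 0 replicates 3 and 4 and day 14 replicates 1, 2 and 3. The fitted log2 fold changes in these fits ran from -10.52 to -9.05 for Myh6 (-9.61 with all) and from -2.57 to -2.06 for Ryr2. Without the 4 libraries that stand apart, the called members were at -6.24 (Myh6), -1.79 (Ryr2) and -2.31 (Myh7). Myl4, Myl7 and Tnnt2 turned from -1.89, -1.89 and -0.96 to 0.89, 1.59 and 1.51.

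At day 21, 1 of 9 members was called, again Myh7 (-1.81 ± 0.36; n = 3 and 4), which was lower; of all genes 22.5% were called, 12.4% higher and 10.1% lower. Myh6 stood at 1.39 ± 1.86 and Tnnt2 at 1.91 ± 1.33, and the median was 0.20, against 0.02 over all genes. Without day 21 replicate 1, Myh6 turned to -7.29 and Tnnt2 to -1.65, and 2 of 9 were called, Myh7 and Actc1. The 3 comparisons share the day 0 libraries, so they are not independent of each other. Without all 4 libraries that stand apart, the 8 members lay between -3.88 (Myh6) and 0.85 (Tnnt2) at day 21, with Myh7 at -2.21. At days 7, 14 and 21, 0, 3 and 1 of them were called, where that fit called 7.22, 20.4 and 14.9% of all genes. Groups that lay wholly below day 0 numbered 1, 3 and 1 members at days 7, 14 and 21, where 13.2, 14.4 and 16.0% of all genes tested lay wholly below. At day 14 Myh6 was among them, although day 14 replicate 3 and day 0 replicate 1 had 2 counts each.

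**Figure D4:**
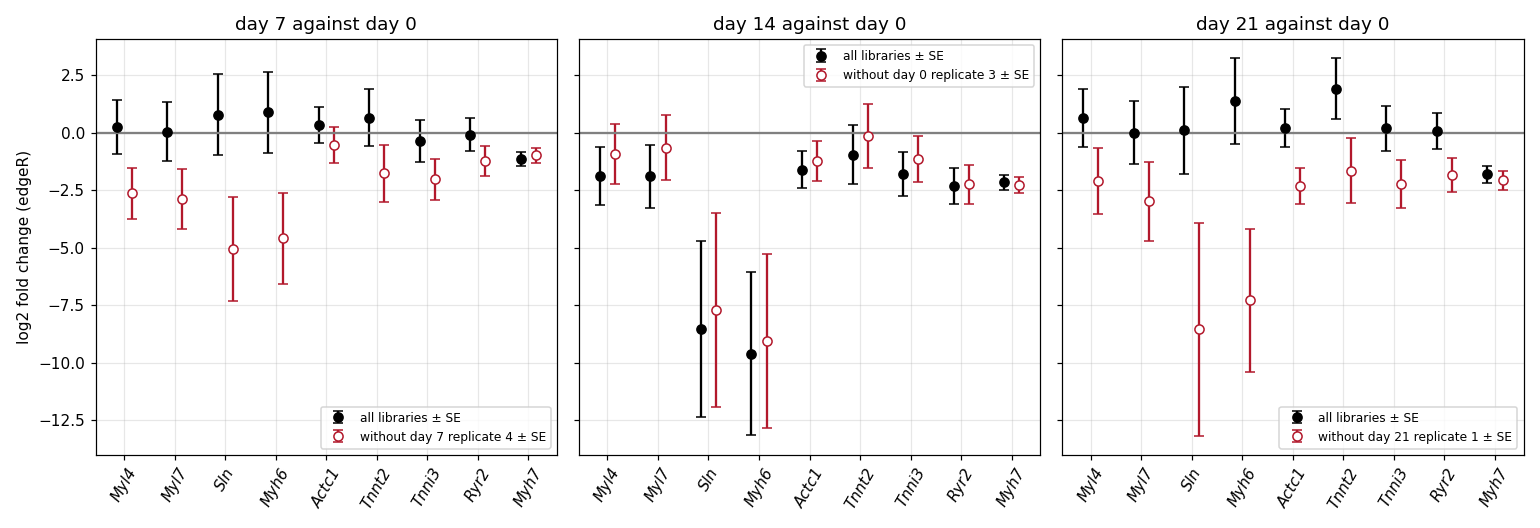
Log2 fold change against day 0 with its SE (edgeR) for the 9 tested members at days 7, 14 and 21, with all libraries (black) and without the 1 library named in each panel (open red). Leaving out day 7 replicate 4 takes Myh6 from 0.88 to -4.60, leaving out day 21 replicate 1 takes it from 1.39 to -7.29, and Myh7 stays between -2.27 and -0.99 in all panels; fitted values for Sln and Myh6 at day 14 depend on the prior count and are no bounds.

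Of the 46 other cardiac genes tested, 5 rose and 3 fell at day 7, 4 rose and 6 fell at day 14, and 5 rose and 3 fell at day 21, with median log2 fold changes of 0.52, -1.42 and 0.61. These are 17.4, 21.7 and 17.4% of them, near or below the 16.1, 23.1 and 22.5% of all genes called. Without the 4 libraries that stand apart, 30 were tested and 4, 7 and 9 called. These are 13.3, 23.3 and 30.0% of the 30, against 7.22, 20.4 and 14.9% of all genes. Ankrd1, a stress-responsive cardiac ankyrin repeat protein also made outside the heart, had 12.9 to 24.8 CPM at day 0 and 42.2 to 126.2 CPM in every later library. Its log2 fold changes were 2.06 ± 0.37, 2.03 ± 0.37 and 2.37 ± 0.39 at the 3 times (adjusted p = 0.0012, 0.00068 and 0.00036, edgeR), and it was called in every alternative run; without the 4 libraries they were 2.24, 2.40 and 2.54. Slc8a1 (the sodium-calcium exchanger) and Jph2 (junctophilin) rose at all 3 days by 0.65 to 1.09 (adjusted p from 0.017 to 0.048, edgeR). Jph2 lost its call in 14 of 19, 9 of 19 and 12 of 17 alternatives, and Slc8a1 in 11 of 19 at day 14. Without the 4 libraries neither was called at any day, at 0.68, 0.74 and 0.74 for Jph2 and 0.73, 0.55 and 0.99 for Slc8a1. Atp2a2, the calcium pump of the sarcoplasmic reticulum, rose at day 7 by 0.63 ± 0.18 (adjusted p = 0.020, edgeR), a call lost in 6 of 19 alternatives, among them the fit without the 4 libraries, where it was 0.27 ± 0.15.

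Of all genes, 16.1, 23.1 and 22.5% were called at days 7, 14 and 21. Of the natriuretic peptide pathway, 4 of 6 genes were tested. At these days 3, 3 and 4 genes of this pathway, a part of the other cardiac list, were called, all lower but 1 at day 21. Its receptors Npr1, Npr2 and Npr3 fell at every day: Npr1 by 0.66, 0.83 and 0.79, Npr2 by 0.70, 0.63 and 0.88, and Npr3 by 1.43, 1.60 and 1.43 on the log2 scale (adjusted p from 0.00063 to 0.039, edgeR). The guanylyl cyclases Npr1 and Npr2 ranged from 139.6 to 169.7 and 117.5 to 150.7 CPM at day 0 and did not overlap with any later day, and 8 of 19 alternatives lost the Npr1 call at day 7. Without the 4 libraries, the values for Npr3 were -2.45, -2.06 and -1.85, all called, while Npr1 was called at day 14 alone (-0.71, -0.83 and -0.63) and Npr2 at days 7 and 21 (-0.65, -0.54 and -0.67). Corin, the protease that activates the atrial peptide, rose at day 21 by 1.49 ± 0.39 (adjusted p = 0.0095, edgeR), and by 1.55 without the 4 libraries. Nppb, the B-type peptide, had 0 counts in all 4 day 0 libraries and 2 to 11 in each of the 11 later ones, too few to pass the filter. At day 14 Tcap (-4.29) and Cox8b (-3.16), genes of the Z-disc and of muscle respiration, fell, and both were higher in the 4 libraries that stand apart than in any other; each lost the call in 6 alternatives. Without the 4 libraries Tcap was at -1.85, still called, and Cox8b did not pass the filter.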

How the data were processed

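The members, the lists of other genes and the libraries left out were chosen with earlier results of these data known. Named genes are the 10 members, the other cardiac lists, the 10 non-members most like the members, and the marker genes of other tissues. Some genes under this rule are counted but not reported by name here. PolyA RNA of whole lung was sequenced by the authors, who trimmed reads, aligned them to mm10 with HISAT2 2.1.0, dropped multi-mapped reads and deposited raw counts per gene from HTSeq 0.6.0. Strand setting and annotation release are not given in the sources used here, and an unstranded count cannot part antisense neighbours. Of 33340 gene IDs, 33267 matched GENCODE M21, which gave symbols, exon lengths and coordinates; 450 genes had no count.

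Counts were tested with edgeR 4.0.16 (R 4.3.3): TMM scaling, filterByExpr, all 15 libraries, 1 term per day, quasi-likelihood F test, Benjamini-Hochberg adjustment over 17457 genes. CPM are counts over TMM-scaled library sizes. CPM per kb divides by exon length, which joins all annotated exons of a gene. Likeness used log2 CPM (prior count 2). On simulated counts for day 14 against day 0 (17173 genes), 65 of 100 genes changed by 1 on the log2 scale, 92 of 100 changed by 2 and 7 of 16973 unchanged ones were called. The changed genes were drawn at random from those over 1 CPM. The tested members other than Myh7 varied far more (69.2 to 214.9% against a median of 19.3%), so these rates do not hold for them. Alternatives used DESeq2 1.42.0, limma 3.58.1 (voom), other scalings, filters, sample sets and covariates. Intervals and floors cover counting error only.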

Additional observations from a re-analysis of the deposited data

Results flagged for a closer look

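A library was singled out where its gap to the nearest library of the same day passed Dixon's 95% critical value; chance does so in about 1 in 20 groups. Of 33 groups of 4 libraries 11 passed, but the members were chosen for this variation within a day and vary together, so that number is not read against chance. Day 21, with 3 libraries, was not tested. Day 7 replicate 4 accounts for 9 of the 11. Its levels, in CPM with the range of its day's other libraries, were higher in Myh6 (296.1 against 0.447 to 4.12), Tnnt2 (96.0 against 4.23 to 5.97), Myl4 (57.8 against 1.34 to 3.41), Myl7 (41.2 against 1.17 to 2.09), Tnni3 (29.5 against 1.84 to 4.83), Ryr2 (20.2 against 2.44 to 4.13), Sln (18.6 against 0 to 0.220) and Nppa (1.19 against 0 to 0.0566). The 9 members without Myh7 summed to 684.2 CPM there, against 31.4 to 61.7. The other 2 concern Nppa at 2 counts against 0 in the rest of the day, at 0.112 CPM in day 0 replicate 4 and 0.118 CPM in day 14 replicate 1, which is below the floor of 3 counts.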

How the results depend on the processing

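Leaving out 1 library each turned the direction of most members' fold changes at days 7 and 21, and in libraries with 0 to 3 counts of a gene, as for Myl2 and Nppa in most, the depth allowed no order of the libraries. Of 488 member fold changes under alternatives, 456 moved by less than 1 SD between libraries of a day, 32 moved by more and 70 changed sign; no called one did. The count of members called at day 7 was 0 without the 4 libraries of high cardiac counts, and 0 to 1 when each library was left out. At day 14 it was 9 of 9 among the libraries over 3.5% mitochondrial share, where 17.7% of all genes were called and whose day 0 libraries are the 2 of high cardiac counts, and 1 to 3 when each was left out; at day 21 it was 1 to 2. Other cardiac genes called numbered 4 at day 7 both with the mitochondrial share as covariate and without the 4 libraries. Those fits called 1269 and 1264 of all genes. At day 14 over 3.5% share, 26 of 43 other cardiac genes were called. Leaving out each library gave 5 to 7, 4 to 8 and 5 to 9 of them at days 7, 14 and 21. The median likeness of the members was 0.93 by Pearson r and 0.86 by Spearman rho. With the replicate number as a block, 1, 3 and 1 members and 2915, 4113 and 3752 genes were called. Same-numbered libraries of day 0 and a later day deviated together little (r from -0.24 to 0.22), and later days were not compared with each other. A pairing by number was thus not seen, which does not exclude one. The cause of these changes was not tested.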
